A study of Mus musculus with 386 samples.

Results

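The genes of the mouse MHC class II pathway were followed across 4 tissues of 3 inbred strains and their reciprocal F1 hybrids. The set comprised the E molecule chains H2-Ea and H2-Eb1, the A molecule chains H2-Aa and H2-Ab1, the invariant chain Cd74, the peptide-loading chains H2-DMa and H2-DMb1, their modulators H2-Oa and H2-Ob, and the transactivator Ciita. Each gene was read from the array probe cluster that is annotated with that symbol alone, taking the cluster of highest mean where there were several. This rule measured 9 of the 10 members, out of 18820 genes measured in all. H2-DMb1 is annotated only together with other symbols and was not measured. All values are log2 signals of Affymetrix microarrays. Levels are compared within a gene, since signals of different probe clusters have no common scale.

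The study profiled mice 23 days old, bred at UNC from animals a few generations away from founders of the Jackson Laboratory. The 9 crosses were the inbred CAST, PWK and WSB, each mated within its strain, and the F1 crosses CASTxPWK, PWKxCAST, CASTxWSB, WSBxCAST, PWKxWSB and WSBxPWK, with the dam written before the sire. The labels name no treatment. Total RNA from tissue powder of 111 animals gave 85 arrays of brain, with 102 of kidney, 101 of liver, 98 of lung, and 6 to 13 arrays per cross and tissue and both sexes in every group. An animal gave at most 1 array per tissue. Powder of whole tissue holds every cell type and any blood left in it, so fewer cells of a type and less RNA per cell cannot be told apart.

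MHC class II molecules are pairs of an α and a β chain that carry peptides from ingested proteins to the surface of B cells, dendritic cells and macrophages, where helper T cells read them. The invariant chain CD74 escorts newly made chains to endosomes, the DM molecule exchanges its remnant for other peptides, and the DO molecule, found mainly in B cells, restrains DM. CIITA is the master switch of this gene group: it is recruited to a shared promoter module, with X and Y boxes, by factors bound there. The A chain genes and H2-Eb1 are highly polymorphic between mouse strains, and several common laboratory haplotypes make no Eα chain.

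The RefSeq table used here (GRCm38.p6, the genome of C57BL/6J, which is none of the 3 strains) places the H2 members in one region of chromosome 17, while Cd74 and Ciita lie on other chromosomes. It lists H2-Ea as a transcribed pseudogene. Promoter entries were matched for 5 of the 9 measured members. The 4 sequences below are the 120 bases just before the annotated start of a class II gene, 5′ to 3′ on the gene's strand, and are shown because they carry the shared module. Capitals mark GCAAC, the core of the X box, and ATTGG, the Y box. H2-Aa lies on the minus strand at chr17:34287824-34287943, H2-Eb1 on the plus strand at chr17:34305747-34305866, H2-Ob on the plus strand at chr17:34238785-34238904, and H2-Oa on the plus strand at chr17:34092259-34092378.
H2-Aa: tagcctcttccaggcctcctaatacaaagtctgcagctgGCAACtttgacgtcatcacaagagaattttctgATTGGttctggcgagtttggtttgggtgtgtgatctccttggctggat
H2-Eb1: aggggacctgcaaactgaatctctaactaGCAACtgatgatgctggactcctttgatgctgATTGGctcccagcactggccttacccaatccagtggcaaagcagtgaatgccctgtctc
H2-Ob: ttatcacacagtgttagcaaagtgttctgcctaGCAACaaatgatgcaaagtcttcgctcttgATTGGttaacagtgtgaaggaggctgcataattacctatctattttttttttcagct
H2-Oa: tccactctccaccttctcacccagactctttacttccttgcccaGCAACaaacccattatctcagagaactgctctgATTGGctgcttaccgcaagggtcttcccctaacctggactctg

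The letters searched were chosen after these promoters had been read. Over 250 bases upstream and on both strands, GCAAC occurred in 29.9% and ATTGG in 33.8% of 32851 promoters. GCAAC followed by ATTGG with 20 to 35 bases between them occurred in 0.673% of all promoters and in 4 of the 5 members with an entry, the exception being H2-DMa. The distance was 28 bases in H2-Aa and H2-Oa, 27 in H2-Eb1 and 25 in H2-Ob. These are letters of the reference genome and not of the strains profiled.

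The arrays were evenly scaled, with array medians between 5.89 and 6.36. Limma tests (both directions) with Benjamini-Hochberg adjustment, called at an adjusted p under 0.05, were run on the 11292 genes above the 40th percentile of mean signal in each tissue. That filter passed 8 members in lung (all measured but H2-Oa), 7 in liver (also without H2-Ob), 6 in kidney (also without Ciita) and H2-DMa alone in brain. Animal numbers in the labels come in runs of neighbouring numbers, each within 1 cross; the sources used here do not say what a run is, and a fit with a random effect of run, called the run block, was tried. The Xist signal went against the sex label in 1 brain and 1 liver array, which were kept, and leaving them out ended none of 86 member calls. A list of 3 hepatocyte genes ranged from 6.62 to 12.71 over the lung arrays and from 5.57 to 12.14 over the kidney arrays, against 13.39 to 13.65 in liver; its part in the results was not tested.

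Lung was the tissue of highest signal for all 9 measured members, and brain the lowest for all but H2-DMa. H2-Ea averaged 10.52 ± 2.10 (SD, n = 98) in lung, 9.23 ± 1.30 (n = 101) in liver, 8.85 ± 1.46 (n = 102) in kidney and 5.67 ± 0.41 (n = 85) in brain, with the PWK strain far below the other crosses outside brain. Cd74 averaged 11.97 in lung, 10.28 in liver, 10.16 in kidney and 6.21 in brain. H2-Aa averaged 10.84, 9.27, 8.96 and 4.96 in the same order, and H2-Ab1 10.83, 9.45, 9.37 and 5.89. The genes of the A chains and Cd74 thus had one tissue order. H2-DMa stood apart from it, with 9.34 in lung, 8.19 in brain, 7.58 in kidney and 7.55 in liver. H2-Ob averaged 6.78 in lung and 5.29 to 5.57 elsewhere, H2-Oa 6.03 and 4.96 to 5.25, and Ciita 6.83 in lung, 6.05 in liver, 5.68 in kidney and 4.99 in brain.

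Each tissue was then set against the mean of the other tissues for the 6 members above the filter in the joint fit. In lung all 6 were higher (96.2% of all genes were called in either direction): H2-Aa by 3.09 ± 0.03 (SE), Cd74 by 3.06 ± 0.03, H2-Ea by 2.68 ± 0.03, H2-Ab1 by 2.57 ± 0.03, H2-Eb1 by 1.82 ± 0.03 and H2-DMa by 1.56 ± 0.03. Brain was lower for 5 of 6 (96.3%), from -4.72 for H2-Aa to -2.43 for H2-Eb1, while H2-DMa differed by 0.03 ± 0.03 (adjusted p = 0.305). Kidney (94.6%) and liver (96.4%) were called for 6 of 6 each, with 5 higher and H2-DMa lower, by -0.77 and -0.82. As nearly every gene differs between tissues, the calls themselves separate no member from the rest. Without the filter on low signals, H2-Oa, H2-Ob and Ciita were higher in lung by 0.93, 1.36 and 1.25.

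H2-Ea, the α chain of the E molecule, was at a low level in PWK and high in every cross with another parent. In lung the 12 PWK arrays had a lowest, median and highest signal of 4.70, 5.01 and 5.92. The 10 CAST arrays had 11.35, 11.82 and 12.36, and the 12 WSB arrays 11.06, 11.35 and 11.55. The lowest of the 86 other lung arrays lay 4.20 above the highest PWK array. In kidney PWK had 4.80, 5.10 and 5.41, CAST 9.06, 9.66 and 10.25, and WSB 9.10, 9.49 and 9.85. In liver PWK had 4.90, 5.31 and 5.83, CAST 9.54, 9.95 and 10.31, and WSB 8.89, 9.42 and 10.64. PWK did not overlap any other cross in these 2 tissues either, its highest array lying 2.76 below the lowest of 90 others in kidney and 2.70 below the lowest of 92 others in liver. The PWK mean was 5.07 in lung, 5.10 in kidney, 5.35 in liver and 5.29 in brain, so the tissue order seen in the other crosses was not seen in this strain. In brain, where no cross averaged above 6.08, the PWK arrays overlapped the others.

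CAST exceeded PWK in H2-Ea signal by 6.75 ± 0.09 (SE) in lung, 4.54 ± 0.12 in kidney and 4.58 ± 0.12 in liver. PWK differed from WSB by -6.27 ± 0.08, -4.38 ± 0.11 and -4.16 ± 0.12. The strains with a high signal differed far less: CAST minus WSB was 0.47 ± 0.09 in lung and 0.42 ± 0.11 in liver, and 0.16 ± 0.12 in kidney, where it was not called (adjusted p = 0.242, limma with Benjamini-Hochberg adjustment).

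H2-Eb1, the β chain that pairs with Eα, had another strain pattern: it was high where CAST was a parent and low in every other cross. In lung the CAST arrays had 10.82, 11.20 and 11.55, the 43 arrays of F1 crosses with a CAST parent 9.61, 10.17 and 10.68, and the 45 arrays without one 6.15, 6.81 and 7.42. The groups with and without a CAST parent were separated by 2.19, and the CAST arrays also lay above all their F1. The separation was 1.40 in kidney, where arrays without a CAST parent ended at 6.84, and 1.80 in liver, where they ended at 6.64. In brain the groups overlapped. PWK, the strain with the low H2-Ea signal, thus shared a low H2-Eb1 signal with WSB, whose H2-Ea signal was high.

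CAST exceeded PWK in H2-Eb1 by 4.33 ± 0.10 in lung, 2.80 ± 0.10 in kidney and 3.18 ± 0.14 in liver, and exceeded WSB by 4.65 ± 0.10, 3.37 ± 0.10 and 3.69 ± 0.13. Between the low strains PWK was higher than WSB by 0.32 ± 0.09 in lung, 0.57 ± 0.10 in kidney and 0.51 ± 0.13 in liver. Their lung ranges nonetheless overlapped, with 6.63, 6.86 and 7.05 in PWK against 6.15, 6.54 and 7.42 in WSB. H2-Eb1 passed the kidney and liver filters by its mean over all crosses. The WSB mean lay under the filter threshold there, at 5.796 against 6.271 in kidney and 5.676 against 5.96 in liver. The kidney and liver differences between PWK and WSB thus compare signals near or under that threshold. The same grouping was tried for every measured member and inbred strain: the strain's inbred arrays below all others, or all crosses with that parent above those without. Only H2-Ea with PWK alone and H2-Eb1 with a CAST parent gave groups that did not overlap in kidney, liver and lung. The share of all genes with such groups is not given here, so this result does not set these members apart from other genes. Whether strain differences in sequence under the probes contribute to either pattern was not tested.

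**Figure D1:**
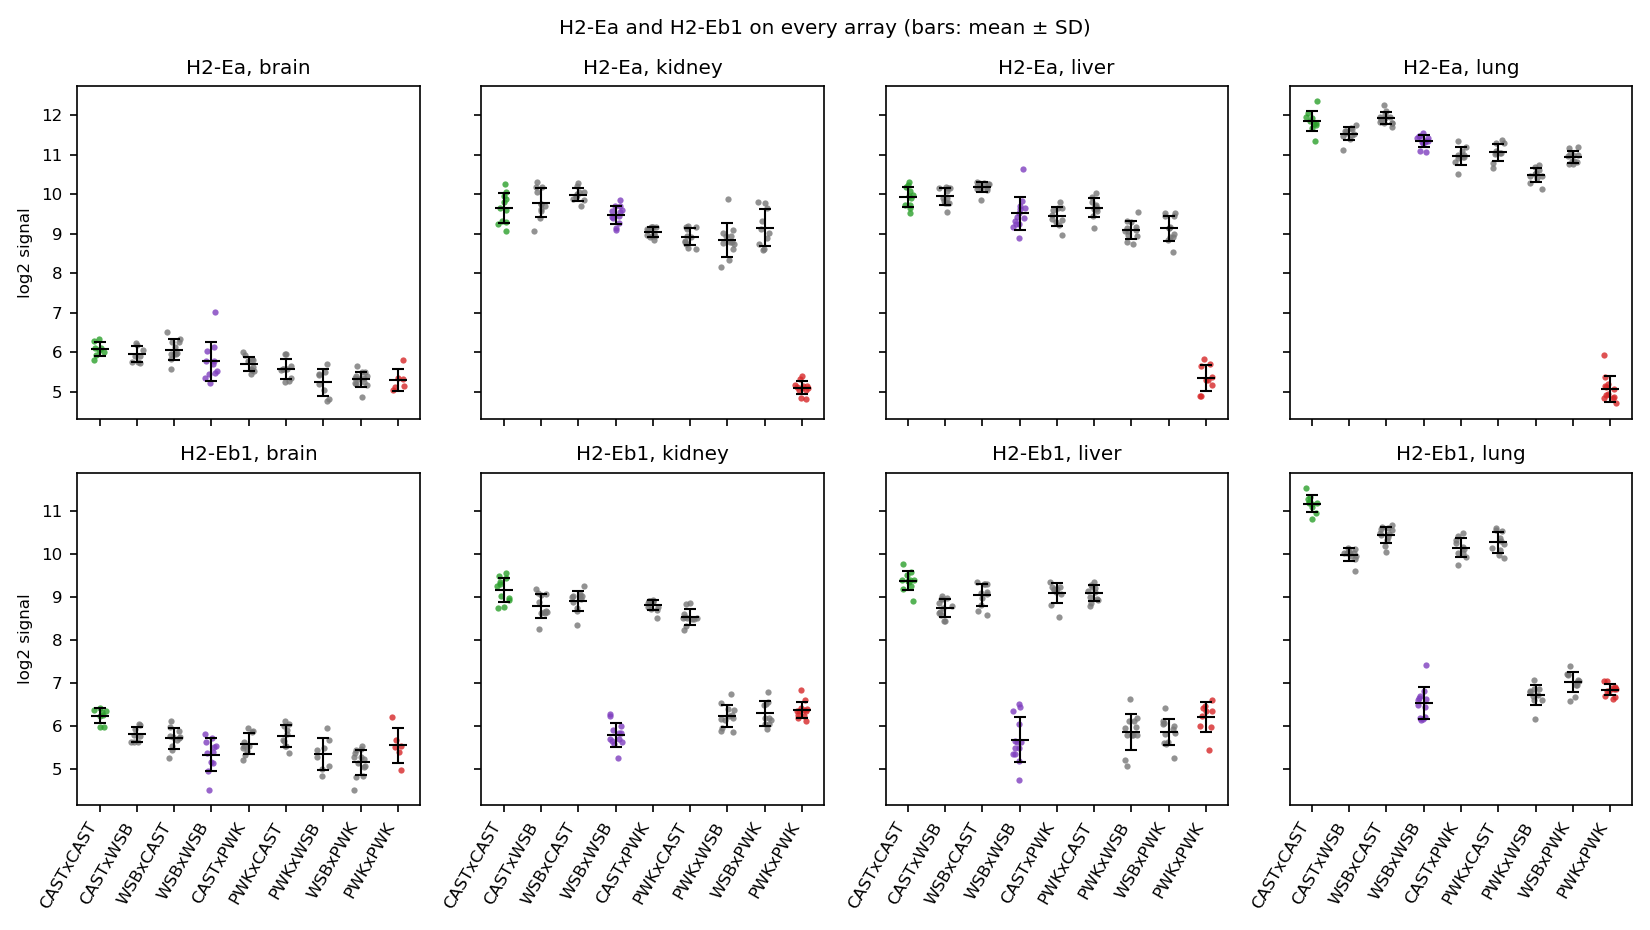
Log2 signal of H2-Ea and H2-Eb1 in every brain, kidney, liver and lung array, by cross, 1 point per array. Outside brain, H2-Ea is near 5 in PWK alone and above 8 in all other crosses. There H2-Eb1 is above 8 in each cross with a CAST parent and below 8 in the rest.

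The order of the lung crosses for H2-Ea was WSBxCAST (mean 11.92 ± 0.15, SD, n = 12), CAST (11.85 ± 0.26, n = 10), CASTxWSB (11.53 ± 0.17, n = 11), WSB (11.34 ± 0.15, n = 12), PWKxCAST (11.07 ± 0.22, n = 10), CASTxPWK (10.98 ± 0.22, n = 10), WSBxPWK (10.95 ± 0.15, n = 11), PWKxWSB (10.49 ± 0.18, n = 10) and PWK (5.07 ± 0.33, n = 12). Neighbours in this order overlapped, except that the lowest WSBxPWK array (10.78) lay just above the highest PWKxWSB array (10.73), and PWK lay far below all.

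The F1 hybrids of PWK were much nearer to their high parent on the log2 scale. On the linear scale 3 of the 4 crosses lay near the mid-point in lung, and WSBxPWK in lung and the crosses in kidney and liver lay above it to varying degrees. In lung the 41 F1 arrays with a PWK parent had H2-Ea signals of 10.12, 10.93 and 11.37. The CAST-PWK F1 lay 5.93 ± 0.07 above PWK and -0.81 ± 0.08 from CAST, and the PWK-WSB F1 5.64 ± 0.07 above PWK and -0.64 ± 0.07 from WSB. Converted to linear signal (2 to the power of the log2 value), PWK had 0.922% of CAST's lung signal and 1.33% of WSB's. The F1 crosses had 54.3% ± 8.2 (SD, n = 10; CASTxPWK) and 57.8% ± 8.6 (n = 10; PWKxCAST) of CAST's mean, and 55.3% ± 6.7 (n = 10; PWKxWSB) and 75.9% ± 7.9 (n = 11; WSBxPWK) of WSB's mean. A linear share of 50% is the mid-point between the high parent and no signal. In kidney the same crosses had 64.0%, 59.3%, 66.4% and 82.6%, and in liver 70.8%, 82.6%, 72.7% and 75.0%.

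H2-Eb1 had the like F1 pattern around CAST. In lung PWK had 4.90% and WSB 4.09% of CAST's linear signal. CASTxPWK had 49.1% ± 7.7 (SD, n = 10), PWKxCAST 53.6% ± 9.1 (n = 10), CASTxWSB 43.6% ± 4.0 (n = 11) and WSBxCAST 60.4% ± 7.5 (n = 12). The values in kidney were 77.2%, 64.0%, 77.3% and 83.2%, and in liver 82.3%, 81.5%, 65.0% and 80.1%. For both E chains each kidney and liver share was at or above 59.3%. The difference in the share between tissues was not tested.

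**Figure D2:**
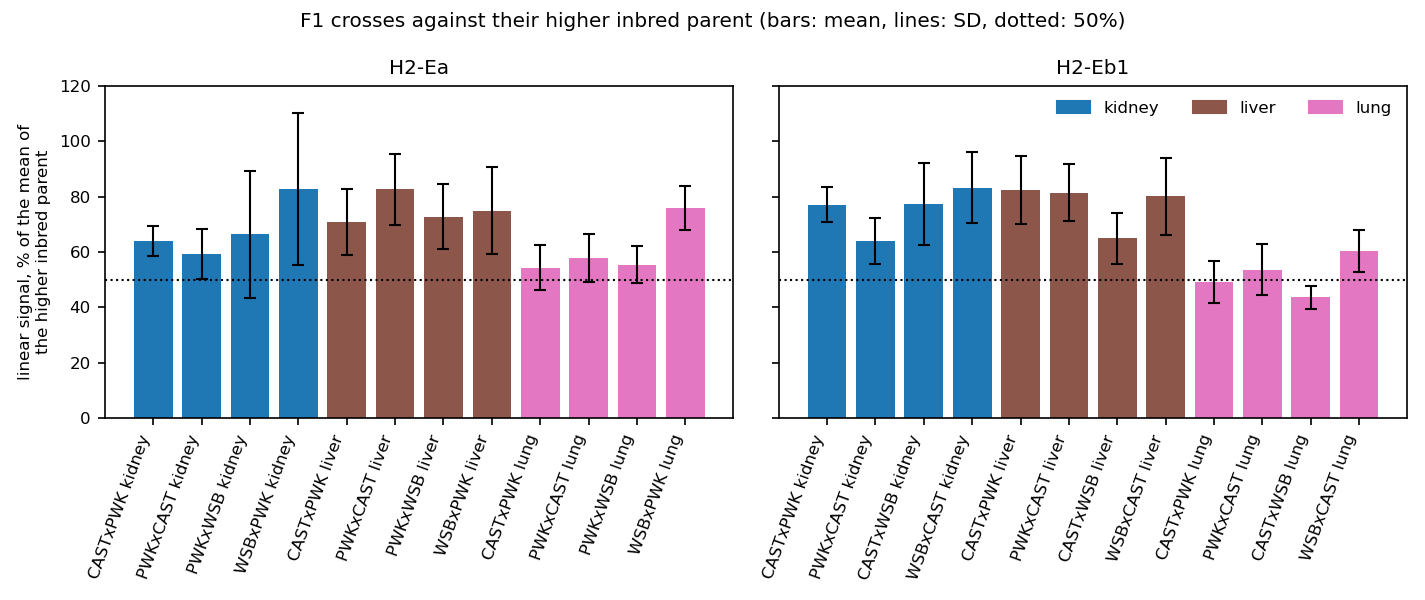
Linear signal of each F1 cross as a percent of its higher inbred parent, for H2-Ea in crosses with PWK and H2-Eb1 in crosses with CAST, by tissue, mean and SD over arrays. Lung shares run from 43.6% to 75.9%, and kidney and liver shares from 59.3% to 83.2%.

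Against the log2 mid-parent, 10 of 24 member tests in lung were called, where 19.5% (CAST-PWK), 30.5% (CAST-WSB) and 37.2% (PWK-WSB) of all genes were. The counts were 12 of 18 in kidney (33.7%, 42.7% and 37.4%), 9 of 21 in liver (18.7%, 25.3% and 17.0%) and 0 of 3 in brain with limma (18.9%, 37.1% and 10%; 1 of 3 at an unadjusted p under 0.05). H2-Ea stood above its mid-parent by 2.56 ± 0.06 in the CAST-PWK F1 and 2.50 ± 0.06 in the PWK-WSB F1 in lung, and H2-Eb1 by 1.20 ± 0.07 and 1.38 ± 0.07 in the CAST-PWK and CAST-WSB F1. On the log2 scale the mid-point between a high and a low parent lies far below the linear mid-point. H2-Ab1, the β chain of the A molecule, has no such low parent, and stood above its lung mid-parent by 0.45 ± 0.06 in the PWK-WSB F1 and 0.25 ± 0.06 in the CAST-WSB F1. The PWK-WSB F1 exceeded both parents for H2-Ab1, WSB by 0.72 ± 0.07 and PWK by 0.18 ± 0.07, the latter lost without PWK replicate 2 (adjusted p = 0.0766), without PWK replicate 5 (0.0522) or with the run block (0.174). Its CAST-PWK value, 0.16 ± 0.06 (adjusted p = 0.0484), was lost when any of 42 single lung arrays was left out, and with the run block (0.261).

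In kidney all 6 tested members stood above the PWK-WSB mid-parent, among them H2-Ab1 by 0.54, H2-DMa by 0.41 and Cd74 by 0.25. PWKxWSB replicate 6 had the highest kidney signal of its cross for all 6, for example 11.23 for Cd74. Without it 4 of 6 were called, H2-Aa (adjusted p = 0.0557) and H2-Eb1 (0.0724) being lost, and with the run block Cd74 (0.0999), H2-Aa (0.145) and H2-Eb1 (0.202) were. With the run block 6 of 24 mid-parent calls were made in lung (7.42%, 13.7% and 10.1% of all genes for CAST-PWK, CAST-WSB and PWK-WSB). Against each parent, 27 of 48 member tests were called in lung (CAST-PWK F1 against CAST and PWK 44.2% and 45.7% of all genes, CAST-WSB F1 against CAST and WSB 50.2% and 43.3%, PWK-WSB F1 against PWK and WSB 52.2% and 47.2%). In kidney 27 of 36 were called (52.1%, 44.7%, 57.2%, 42.4%, 51.4% and 49.2% in the same order) and in liver 32 of 42 (38.9%, 33.7%, 39.4%, 46.5%, 33.6% and 46.4%). With the run block the counts against each parent were 22 in lung, 18 in kidney and 22 in liver. The share of all genes called was lower too. Over the comparisons of a tissue it ran from 27.3% to 37.2% in lung, 23.1% to 41.4% in kidney and 17.6% to 28% in liver.

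The other members differed between the inbred strains by about 1 log2 unit at most in lung, and their ranges mostly overlapped. Over all members 21 of 24 lung tests were called, against 62.7% (CAST minus PWK), 59.9% (CAST minus WSB) and 61.4% (PWK minus WSB) of all genes. The counts were 16 of 21 in liver (50.1%, 57.0% and 55.3%), 11 of 18 in kidney (60.1%, 59.6% and 60.7%) and 1 of 3 in brain (40.9%, 52.4% and 40.4%). The kidney count is close to the background.

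The A chains had their lowest lung signal in CAST. H2-Aa had 10.10, 10.53 and 11.06 in CAST, 10.50, 10.88 and 11.23 in PWK and 10.64, 10.92 and 11.16 in WSB; CAST was lower than PWK (-0.39 ± 0.08) and WSB (-0.38 ± 0.08), and PWK and WSB differed by 0.00 ± 0.08 (adjusted p = 0.961). H2-Ab1 had 10.05, 10.25 and 10.71 in CAST, 10.59, 11.18 and 11.24 in PWK and 10.27, 10.58 and 10.76 in WSB. For H2-Ab1, CAST minus PWK was -0.74 ± 0.08, and PWK was higher than WSB by 0.53 ± 0.08. CAST minus WSB for H2-Ab1 was -0.21 ± 0.08 (adjusted p = 0.0206), lost without CAST replicate 3 (0.0536), without CAST replicate 4 (0.0743) or with the run block (0.0632). The A chains thus did not carry the pattern of the E chains, and CAST was lower than PWK in the other tissues tested too, with CAST minus PWK at -0.70 ± 0.11 in kidney and -0.94 ± 0.12 in liver for H2-Aa, and -0.86 ± 0.12 and -1.28 ± 0.11 for H2-Ab1. Against WSB, CAST was lower in kidney for H2-Aa (-0.72 ± 0.11), while H2-Aa in liver (-0.08, adjusted p = 0.554) and H2-Ab1 in kidney (-0.19, 0.168) and liver (-0.15, 0.176) were not called.

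Cd74 and H2-DMa showed smaller differences. Cd74 had 11.73, 11.89 and 12.15 in CAST lung, 11.67, 11.85 and 12.14 in PWK and 11.97, 12.08 and 12.35 in WSB, so WSB was higher than CAST (CAST minus WSB -0.21 ± 0.05) and PWK (-0.24 ± 0.05), while CAST minus PWK was 0.03 ± 0.05 (adjusted p = 0.627). In liver Cd74 was instead higher in PWK, by 0.63 ± 0.08 over WSB and with CAST minus PWK at -0.66 ± 0.08. No Cd74 test was called between strains in kidney. H2-DMa had 8.54, 9.04 and 9.30 in CAST lung, 9.18, 9.53 and 9.87 in PWK and 8.93, 9.35 and 9.76 in WSB. CAST was the lowest strain for H2-DMa in lung (-0.53 ± 0.08 from PWK, -0.31 ± 0.08 from WSB), kidney (-0.45 and -0.31) and liver (-0.60 and -0.43). In brain the only member call was H2-DMa, lower in PWK than in WSB (-0.27 ± 0.07, adjusted p = 0.00206).

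H2-Ob and Ciita did not share the low CAST level in lung: H2-Ob was higher in CAST than in both other strains, and Ciita higher in CAST and PWK than in WSB. H2-Ob, a DO chain, had 6.72, 7.19 and 7.52 in CAST, 5.81, 6.07 and 6.77 in PWK and 6.43, 6.80 and 7.28 in WSB. CAST exceeded PWK by 1.0 ± 0.14 and WSB by 0.35 ± 0.14 (adjusted p = 0.0246, with 0.0697 after quantile normalisation and 0.0713 with the run block), and PWK minus WSB was -0.65 ± 0.13. Ciita had 6.60, 7.12 and 7.34 in CAST, 6.72, 6.88 and 7.34 in PWK and 6.54, 6.66 and 6.96 in WSB. For Ciita, CAST minus WSB was 0.33 ± 0.09 and PWK minus WSB 0.24 ± 0.08 (adjusted p = 0.0119, and 0.0584 with the run block), while CAST minus PWK was 0.09 ± 0.09 (0.367). In liver Ciita was lower in CAST than in PWK (-0.28 ± 0.10, adjusted p = 0.0146, and 0.0624 with the run block) and higher in PWK than in WSB by 0.47 ± 0.10. H2-Oa, the other DO chain, was under the filter, with 5.81, 6.32 and 6.66 in CAST, 5.27, 5.82 and 6.11 in PWK and 5.56, 6.23 and 6.53 in WSB.

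**Figure D3:**
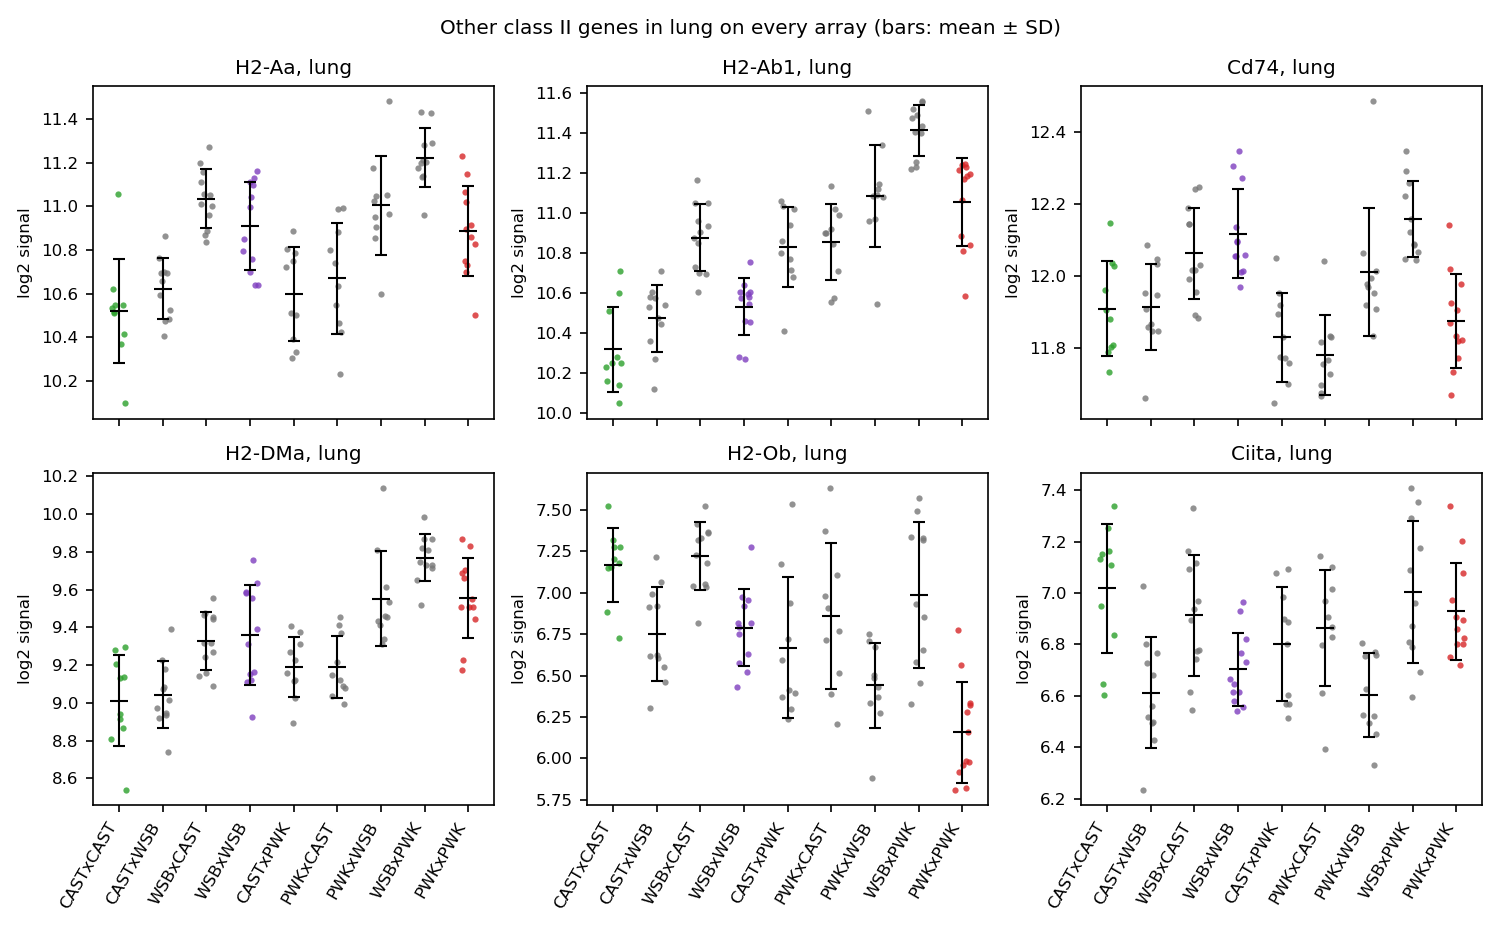
Lung log2 signal of H2-Aa, H2-Ab1, Cd74, H2-DMa, H2-Ob and Ciita by cross, 1 point per array. Among the inbred strains H2-Aa, H2-Ab1 and H2-DMa have their lowest mean in CAST, and H2-Ob its highest in CAST (7.17) and lowest in PWK (6.16); WSBxCAST has an H2-Ob mean of 7.22, and the ranges of most crosses overlap.

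The inbred difference in lung was tested against its mean in brain, kidney and liver. Of 18 member tests 8 were called (background 41.0% for CAST minus PWK, 43.1% for CAST minus WSB and 35.8% for PWK minus WSB). The count is close to the background. The mean of the other tissues takes in brain, where H2-DMa alone passed the filter and H2-Ea and H2-Eb1 averaged 5.67 and 5.58. How far brain widens these values was not tested. The E chains had larger differences in lung: H2-Ea CAST minus PWK by 3.47 ± 0.14 and PWK minus WSB by -3.26 ± 0.13, and H2-Eb1 CAST minus PWK by 2.12 ± 0.14 and CAST minus WSB by 1.98 ± 0.14. Cd74 (0.49 ± 0.12) and H2-Aa (0.38 ± 0.14) also differed for CAST minus PWK, and for PWK minus WSB (-0.58 ± 0.11 and -0.36 ± 0.13). The H2-Aa call for CAST minus PWK was lost with array weights (adjusted p = 0.0501).

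Lists of marker genes were used to describe how the members moved with antigen-presenting cells. Within each tissue, each member was regressed on a list's mean signal among arrays of the same cross and sex, so strain and sex means play no part in the slope. Slopes are log2 units per log2 unit of the list mean. The lists keep few genes above the filter outside lung: for kidney, liver and lung in that order, the dendritic cell list kept 1, 3 and 4 of its 11 genes, the B cell list 2, 3 and 9 of 12, the macrophage list 8, 11 and 9 of 11, and the T cell list 0, 1 and 6 of 9. A list mean takes all its measured genes.

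In kidney all 6 tested members followed the dendritic cell list, where 0.354% of all genes were called with either sign. The slopes were 1.91 ± 0.28 (SE) for H2-Ab1, 1.79 ± 0.28 for H2-Ea, 1.77 ± 0.22 for Cd74, 1.74 ± 0.25 for H2-Aa, 1.26 ± 0.25 for H2-Eb1 and 0.96 ± 0.24 for H2-DMa. On the macrophage list 5 of 6 were called (1.32%), all but H2-Eb1 (0.65, adjusted p = 0.263), and on the T cell list 6 of 6 (0.390%; H2-Eb1 lost with the run block, 0.0752, array weights, 0.0934, and quantile normalisation, 0.0713, and H2-Aa with the last, 0.0573). On the B cell list 1 of 6 was called (0.221%), H2-Ea at 0.66 (lost with the run block, 0.229, array weights, 0.402, and quantile normalisation, 0.126). H2-Ea and H2-Eb1, whose levels are set apart by strain, followed the dendritic cell list within crosses when it was fitted alone. Cd74 and the A chains did so too. With the B cell and macrophage lists in the same fit, Cd74 alone kept the dendritic cell call (limma adjusted p = 0.0358). The call was lost for H2-Ea (0.573), H2-Eb1 (0.92), H2-Aa (0.796), H2-Ab1 (0.796) and H2-DMa (0.998). Without PWKxWSB replicate 6 the counts on the dendritic cell, macrophage, T cell and B cell lists were 5, 4, 3 and 1 of 6 (0.301%, 1.20%, 0.301% and 0.221%), with H2-DMa lost on the dendritic cell list (adjusted p = 0.231) and H2-Ea on the macrophage list (0.188). Quantile normalisation ended both calls too (0.339 and 0.0599).

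In liver the macrophage list had the most member calls, 5 of 7 (12.2%): H2-Eb1 1.64, H2-DMa 1.56, H2-Ab1 1.12, H2-Aa 1.0 and Cd74 0.91. H2-Ea was called on the dendritic cell list (1.17; 1.71% of all genes; lost with array weights, 0.0575, and quantile normalisation, 0.0540), Cd74 on the T cell list (0.75; 5.30%; lost with the run block, 0.0637, array weights, 0.0541, and quantile normalisation, 0.240) and none on the B cell list (7.08%; 1 of 7 at an unadjusted p under 0.05). In lung the B cell list had 8 of 8 (32.0%), and the members ranked by slope as H2-Ob 0.76 ± 0.06, Ciita 0.47 ± 0.04, H2-Eb1 0.37, H2-Ab1 0.29, H2-Aa 0.28, H2-DMa 0.25, H2-Ea 0.19 and Cd74 0.10. Cd74 (adjusted p = 0.0299) was lost without any of 4 single arrays and with the run block (0.0513). The dendritic cell list had 7 of 8 (32.9%), the T cell list 7 of 8 (44.3%) and the macrophage list 4 of 8 (53.3%), the last being H2-DMa 1.17, H2-Ab1 0.72, H2-Ea 0.63 and H2-Aa 0.61. The macrophage count is close to the background. Of these macrophage calls only that of H2-DMa held under both settings that follow: with array weights H2-Ab1 (0.0538), H2-Ea (0.0537) and H2-Aa (0.101) were lost, and with quantile normalisation H2-Ea (0.112) and H2-Aa (0.105). H2-Ob and Ciita had macrophage slopes of -0.64 and -0.34, neither called, and with quantile normalisation -1.17 (adjusted p = 0.00584) and -0.70 (0.0121). On the alveolar type 2 list 1 of 8 was called (3.33%), Cd74 at 1.12 ± 0.27, and it was not called after quantile normalisation (0.59, adjusted p = 0.286). In brain the slope of H2-DMa on the macrophage list was called (0.54 ± 0.15). As 54.1% of all genes were called there, this does not set H2-DMa apart.

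**Figure D4:**
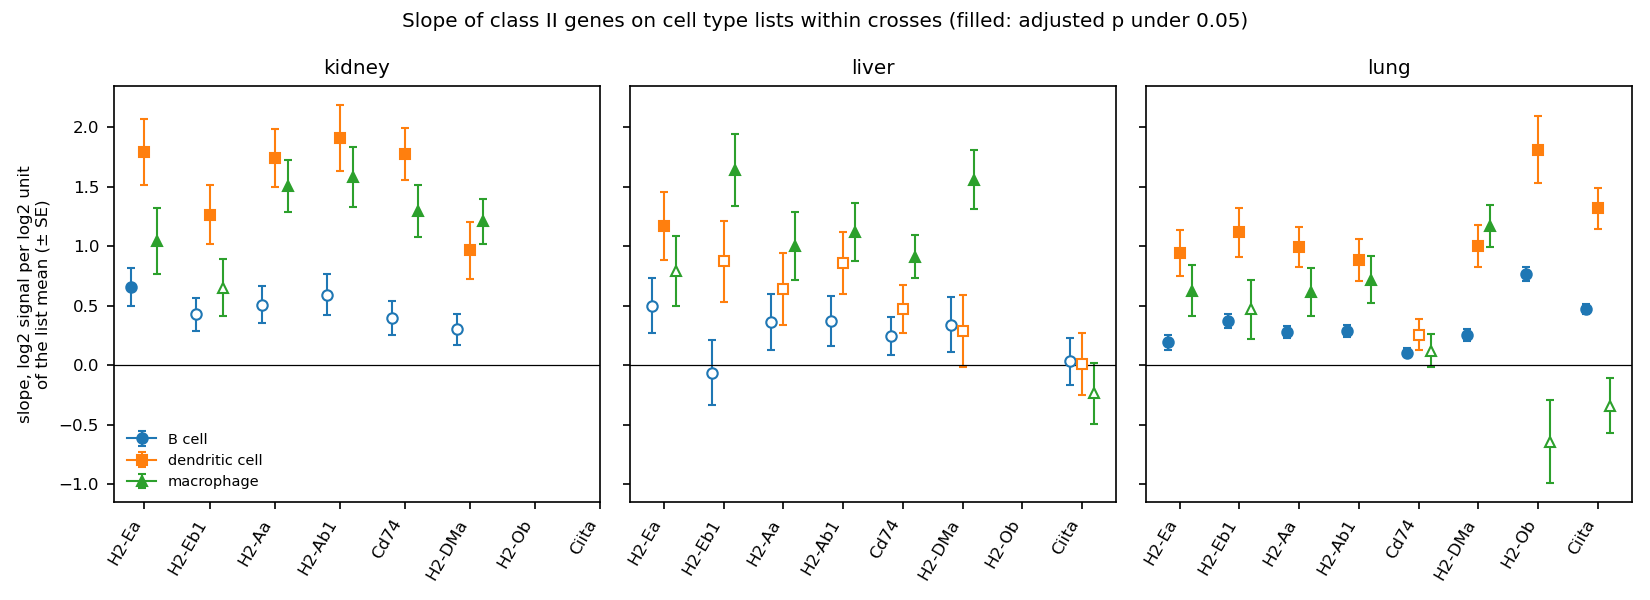
Slope of each tested member on the mean of the B cell, dendritic cell and macrophage lists within crosses and sexes, with its SE, for kidney, liver and lung. In lung H2-Ob (0.76) and Ciita (0.47) have the steepest B cell slopes, and in kidney the dendritic cell slopes run from 0.96 to 1.91.

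With the B cell, dendritic cell and macrophage lists in one fit, 11 of 24 lung slopes were called in place of 19. The share of all genes called in this fit is not given here, so its lung and kidney counts have no background beside them. H2-Ob (0.67), Ciita (0.34), H2-Eb1 (0.33), H2-Ab1 (0.30), H2-DMa (0.25) and H2-Aa (0.23) kept a B cell slope, and H2-DMa (1.22), H2-Ab1 (0.82), H2-Aa (0.63), H2-Eb1 (0.55) and H2-Ea (0.53) had a macrophage slope. No dendritic cell slope was called there. In kidney 4 of 18 were called in place of 12: Cd74 on the dendritic cell list (1.39), and H2-DMa (1.08), H2-Ab1 (1.02) and H2-Aa (1.01) on the macrophage list.

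The B cell list also differed between the inbred strains in lung, with means of 7.69 (7.12 to 8.04) in CAST, 6.66 (6.03 to 7.06) in PWK and 6.99 (6.57 to 7.46) in WSB. With the B cell, dendritic cell and macrophage list means as covariates, 20 of 24 lung tests were called (55.2%, 58.1% and 63.7% of all genes). H2-Ea kept 6.55 for CAST minus PWK and -6.30 for PWK minus WSB, and H2-Eb1 kept 3.91 and 4.28 for CAST minus PWK and CAST minus WSB. H2-Ob had 0.31 ± 0.11 for CAST minus PWK, against 1.0 without the covariates, and its CAST minus WSB value was -0.04 (adjusted p = 0.746). PWK minus WSB for H2-Ob was -0.35, against -0.65 without the covariates. The strain differences of H2-Ob were thus smaller with the lists held equal, and those of the E chains changed little. With the 3 list covariates CAST minus PWK was -0.71 for H2-Aa, -1.13 for H2-Ab1 and -0.92 for H2-DMa. For Ciita it was -0.29 ± 0.07, against 0.09 without them. These values depended on the covariate. With Cd74 in place of the lists CAST minus PWK was -0.41 for H2-Aa, -0.77 for H2-Ab1, -0.55 for H2-DMa and 0.07 (adjusted p = 0.447) for Ciita, and CAST minus WSB was not called for H2-Ab1 (0.575) or H2-DMa (0.0674). With the B cell list alone, CAST minus PWK for H2-Ob was 0.21 (0.0585). In kidney 14 of 18 (55.9%, 54.6% and 47.3%) and in liver 16 of 21 (51.1%, 55.2% and 54.2%) were called.

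Reciprocal crosses share autosomes and differ in the dam, and in males also in the origin of the X and Y chromosomes. No member was called between them with limma in kidney (0 of 18 tests, 5 at an unadjusted p under 0.05; 3.03%, 2.44% and 1.0% of all genes called), liver (0 of 21, 5 unadjusted; 9.32%, 5.62% and 1.22%) or brain (0 of 3, 0 unadjusted; 0.151%, 0.779% and 0.248%). Array weights gave 1 call in kidney. In lung all 8 tested members were lower in CASTxWSB than in WSBxCAST, where 24.3% of all genes were lower and 38.8% were called in either direction. The differences were -0.47 ± 0.09 for H2-Eb1, -0.45 for H2-Ob, -0.41 for H2-Aa and H2-Ab1, -0.39 for H2-Ea, -0.29 for Ciita and H2-DMa and -0.15 for Cd74, the last lost without CASTxWSB replicate 3 (adjusted p = 0.0513). PWKxWSB was lower than WSBxPWK for 5 of 8 (6.32% lower, 8.40% either): H2-Ob -0.53, H2-Ea -0.48, Ciita -0.39, H2-Ab1 -0.33 and H2-Eb1 -0.32, the last lost with array weights (adjusted p = 0.0566) and quantile normalisation (0.0522). CASTxPWK and PWKxCAST had no member call with limma (0.611%; 0 of 8 at an unadjusted p under 0.05).

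With the run block, 4 of the 24 reciprocal lung calls were made in place of 13: H2-Ea, H2-Eb1, H2-Aa and H2-Ab1 for CASTxWSB against WSBxCAST (10.4% of all genes). In CASTxPWK against PWKxCAST none was (0.0797%). In PWKxWSB against WSBxPWK none was either (0.239%), the adjusted p running from 0.134 (H2-Ea) to 0.425 (H2-Eb1). Without PWKxWSB replicate 9, H2-Ab1 (0.0803), H2-Eb1 (0.142) and H2-Ob (0.0800) were lost there as well. B cell markers moved with these calls. Their list mean was 6.86 (6.34 to 7.52) in CASTxWSB and 7.62 (7.12 to 7.99) in WSBxCAST, with 9 of 9 tested B cell genes lower, and 6.69 (6.05 to 7.14) in PWKxWSB and 7.26 (6.69 to 8.04) in WSBxPWK, with 5 of 9 lower. T cell genes were lower in 6 of 6 and 2 of 6. The hepatocyte list averaged 9.89 and 9.90 in the former pair and 9.77 and 8.67 in the latter. The part of these lists in the reciprocal differences was not tested.

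Between the sexes 1 of 6 members was called in kidney (10.9% of all genes), H2-DMa with female minus male at 0.13 ± 0.04 (adjusted p = 0.0396), lost without PWKxWSB replicate 6 (0.0584). In liver 1 of 7 was called (13.8%), H2-Eb1 with female minus male at 0.21 ± 0.06 (0.0116). H2-DMa in kidney was also lost with the run block (0.157). No member was called by limma in lung (3.52%; 0 of 8 at an unadjusted p under 0.05) or brain (0.0708%; 0 of 1).

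Of 26 other genes of the pathway 22 were measured, among them the RFX and NF-Y subunits, the interferon-γ receptor chains and the endosomal proteases, and 18 passed the filter in lung. Between inbred strains 8 were higher and 4 lower for CAST minus PWK (median 0.04, all genes 0.01; 62.7% of all genes called), 8 and 6 for CAST minus WSB (59.9%), and 4 and 6 for PWK minus WSB (61.4%), so the counts for the first and the last pair were close to the background. The interferon receptor chain Ifngr2 had the largest difference of these genes for PWK minus WSB, at -1.11 ± 0.06, and CAST minus WSB was -0.71 ± 0.06. Cd40, the receptor through which T cells license antigen-presenting cells, was lower in CAST than in WSB (-0.80 ± 0.09), and the lysosomal thiol reductase Ifi30 was higher in CAST and in PWK than in WSB, by 0.46 ± 0.07 each. On the kidney dendritic cell list, 1 of 18 pathway genes was called (0.354% of all genes), the protease Ctss that trims the invariant chain. Ctss was also called in kidney on the T cell list (0.390%) and, with Irf1, on the macrophage list (1.32%). In lung 8 of 18 were higher on the dendritic cell list (32.9%) and 8 on the T cell list (44.3%). The lung macrophage list had 10 higher and 3 lower (53.3%), and the lung B cell list 5 and 1 (32.0%).

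The genes whose lung signal was most like a member's, over 98 arrays as deviations from cross and sex means, were described by Pearson correlation. For Ciita they were Bcl11a (0.83), Cd37 (0.81) and Cd180 (0.81), and the value with H2-Ob was 0.72. For H2-Ea they were Ctss (0.63), Vps26c (0.62) and Eif3i (0.61), and for H2-Eb1 Sirt7 (0.65), Tnfaip8l2 (0.63) and Ltb (0.62). For Cd74 they were Mmrn2 (0.61), Sh3bgrl3 (0.61) and Gprc5a (0.59). These arrays share their normalisation and no further reading is made of the values.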

How the data were processed

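Per the submitters' processing notes, the authors processed the arrays with Affymetrix Expression Console and RMA (background correction, quantile normalisation and probe-set summary), and deposited 1 table of log2 signals for 35556 probe clusters and all arrays. Tool versions, the genome build behind the probe annotation, whether tissues were normalised together, litter and plate are not given in the sources used here. The platform annotation gave 1 symbol to 21218 clusters, several to 1881 and none to 12457; of those with 1 symbol, 21185 matched the RefSeq gene table. Clusters with 1 symbol were reduced to 18820 genes by highest mean. No value was missing, and no 2 arrays were identical.

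Groups are cross and sex, from the labels. In each tissue, limma 3.58.1 (R 4.3.3) was fitted to 18 cross-by-sex means with empirical Bayes trend, on genes above the 40th percentile, and p-values were adjusted by Benjamini-Hochberg over all genes of a tissue and contrast. Crosses were averaged over sex with equal weight; the tissue and lung-against-others tests used 36 cross-by-tissue means. Tables were prepared with Python 3.11.15 and pandas 2.3.3, and the fits were tested on simulated data. Precision is limited by the number of arrays. Within a tissue the replicates are animals, so p-values measure the spread between animals. The genes and lists were chosen with earlier results of these data known. Other genes were named by rank: the pathway genes with the largest differences in each direction, and the 3 genes most correlated with a member. Alternatives were another or no filter, quantile normalisation, array weights, an additive model, runs of animal numbers or the animal as a random block, other covariates, and single lung arrays left out; leaving out the arrays with a mismatched Xist signal or PWKxWSB kidney replicate 6 was chosen after seeing the data.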

Additional observations from a re-analysis of the deposited data

Results flagged for a closer look

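Among 58 groups of a member in a tissue and cross with 4 to 10 arrays, 3 had 1 array set far from the rest; a rate near 1 in 20 is given by chance. H2-Eb1 in lung had PWKxWSB replicate 9 lowest at 6.17, with 6.59 next. Cd74 in lung had PWKxCAST replicate 7 highest at 12.04 (next 11.83) and PWKxWSB replicate 7 highest at 12.49 (next 12.06).

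The inbred difference in lung differed from its mean in the other tissues, by a limma interaction test with Benjamini-Hochberg adjustment, in 8 cases. Those tissues include brain, where H2-DMa alone of the members passed the filter. For CAST minus PWK it was larger by 3.47 for H2-Ea and 2.12 for H2-Eb1. For Cd74 and H2-Aa the signed value was higher by 0.49 and 0.38, which was a smaller gap between these strains in lung. For CAST minus WSB it was larger by 1.98 for H2-Eb1. For PWK minus WSB it differed by -3.26 for H2-Ea, -0.58 for Cd74 and -0.36 for H2-Aa. The PWK signal of H2-Ea was near 5 in every tissue, so its strain difference followed the level of the other strain in each tissue.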

How the results depend on the processing

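Calls of single members are counted here against the reported fit. Leaving out 1 of 98 lung arrays at a time kept 11497 calls and ended 67; the ranges over arrays were 20 to 21 (inbred strains), 9 to 13 (mid-parent), 26 to 30 (each parent), 10 to 16 (reciprocal), 0 (sex), 26 to 28 (slopes) and 19 to 20 (covariates). No filter kept 311 and ended 7, the 60th percentile 200 and 2, quantile normalisation 301 and 17, array weights 302 and 16, and the additive model 176 and 6. Without the filter, brain had 13 of 27 inbred, 6 mid-parent, 22 parent, 7 slope and 12 covariate calls, the tissue test 35 and the lung interaction 13. The brain counts take in members under the main filter there, which is every measured member but H2-DMa. At the 60th percentile, fewer members were tested: 6 inbred, 11 slope, 9 covariate and 0 sex calls in kidney, and 9, 9 and 0 inbred, covariate and sex calls in liver. The shares of all genes called without the filter and at the 60th percentile are not given here, so those counts have no background. Against each parent, brain had 0 with quantile normalisation, array weights or runs. Array weights gave 1 reciprocal call in kidney and 2 sex calls in liver. With 3 lists in one fit, 4 kidney and 11 lung slopes were called. With the B cell list as the only covariate brain had 1. Ciita in lung, CAST minus PWK, reversed to 0.0747 (adjusted p = 0.447) with Cd74 as the covariate; the cause was not tested. Replicate numbers come from the order of the samples and pair nothing. Animals pair the tissues: with the animal as a replicate block (correlation 0.0453) all 31 member calls of the tissue and interaction tests held. With runs of animal numbers as a block (correlations 0.0874 to 0.252) 227 calls held and 60 were lost: 6 mid-parent and 4 reciprocal calls were made in lung, 0 and 2 sex calls in kidney and liver, and 1 covariate call in brain. No member has another single-symbol cluster, so that alternative was not run.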
